A study of Mus musculus with 13 samples.

Results

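Of 39277 regions on chromosomes 1 to 19 whose 5-hydroxymethylcytosine (5hmC) was listed as higher in wild-type knee cartilage after joint injury, 5738 (14.6%) overlapped a region whose 5hmC was listed as lower in injured cartilage of Tet1 mutants. These 5738 regions are called reversed gains below, as a name for that rule only. They were chosen by the measured group means: a region qualified when its mean in WT DMM was above that in WT sham, and when at least 1 of its bases lay in a region where the mean in MUT DMM was below that in WT DMM. The second set held 39971 regions, of which 5696 (14.3%) overlapped a gain. Because the same WT DMM libraries stand in both comparisons, a region that is high in them can enter from both sides, and the count of 5738 has no test.

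MUT DMM stands for mice of the strain B6;129S4 with the genotype label TET-/-, operated on to destabilise the medial meniscus (DMM). WT DMM stands for TET1+/+ mice of that strain after the same operation, and WT sham for TET1+/+ knees that were opened only. Per the labels' protocols the medial meniscus was removed in DMM, and each control came from the contralateral leg, so sham and DMM knees may share mice, which the tables do not pair. All mice were male, and cartilage was dissected 6 weeks after surgery. The design text puts them at 3 to 4 months of age, and the treatment protocol at 4 to 6 months. The labels do not describe the mutant allele or its promoter, and 3 samples are labelled for each group. MUT sham libraries and the background control without the glucosyltransferase are not analysed here, so an effect of the mutation without injury was not tested and no background was subtracted.

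5hmC is made from 5-methylcytosine by the TET dioxygenases, of which Tet1 is one, and is an intermediate of active DNA demethylation as well as a mark of its own, often found in enhancers and bodies of active genes. Osteoarthritis is the loss of joint cartilage, in which chondrocytes resume parts of the growth-plate programme, such as hypertrophy, and make matrix-cutting proteases. DMM is a standard way to bring it on in mice. The assay, reduced representation hydroxymethylation profiling, cuts DNA at CCGG with MspI. Glucose protects CCGG sites that carry 5hmC from a later, repeated digest, which removes unprotected sites, so a read reports 5hmC at a CCGG.

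The reversed gains were 260 bases long at the median (200 to 1040), against 240 bases for the other gains. Only 45 of them (0.784%) overlapped a promoter window, taken as 250 bases before to 50 bases after a gene start, against 0.650% of the other gains. Of the 46 windows they touched, 32 (69.6%) held a CCGG on the 300 bases, against 63.2% of the windows touched by any gain and 52.8% of all 32851 windows. CCGG reads the same on both strands and was the only motif searched. The 5 windows below show where the assay could read such a promoter. They were chosen after the values were seen, as the protein-coding genes whose reversed gain held the same WT DMM reads in both comparisons and covered at least 1 CCGG of the window. Sequences are from RefSeq (GRCm38.p6), 5′ to 3′ on the gene's strand, with CCGG in capitals.
Klb: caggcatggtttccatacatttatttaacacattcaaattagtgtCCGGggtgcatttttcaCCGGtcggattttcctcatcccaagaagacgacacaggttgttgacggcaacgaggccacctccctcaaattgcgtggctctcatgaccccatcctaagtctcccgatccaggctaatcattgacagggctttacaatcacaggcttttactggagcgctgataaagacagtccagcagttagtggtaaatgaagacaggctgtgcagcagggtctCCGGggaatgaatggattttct
Mpig6b: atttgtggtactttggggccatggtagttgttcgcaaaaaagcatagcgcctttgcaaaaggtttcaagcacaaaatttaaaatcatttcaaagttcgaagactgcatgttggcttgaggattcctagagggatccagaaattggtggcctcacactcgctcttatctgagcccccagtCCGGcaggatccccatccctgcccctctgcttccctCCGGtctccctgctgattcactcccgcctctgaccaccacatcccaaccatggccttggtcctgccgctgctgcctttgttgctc
Sgms1: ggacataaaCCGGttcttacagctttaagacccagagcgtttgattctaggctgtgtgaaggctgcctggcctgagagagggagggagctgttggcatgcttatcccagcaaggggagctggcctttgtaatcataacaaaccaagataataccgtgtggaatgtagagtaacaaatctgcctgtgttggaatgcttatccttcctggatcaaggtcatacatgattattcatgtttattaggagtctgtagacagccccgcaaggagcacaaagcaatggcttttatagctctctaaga
Slc7a7: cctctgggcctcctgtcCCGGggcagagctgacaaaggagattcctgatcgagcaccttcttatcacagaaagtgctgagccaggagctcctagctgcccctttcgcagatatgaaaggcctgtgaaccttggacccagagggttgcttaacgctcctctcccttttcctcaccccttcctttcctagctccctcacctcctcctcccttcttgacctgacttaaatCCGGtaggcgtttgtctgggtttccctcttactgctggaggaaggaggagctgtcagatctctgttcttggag
Vmn1r120: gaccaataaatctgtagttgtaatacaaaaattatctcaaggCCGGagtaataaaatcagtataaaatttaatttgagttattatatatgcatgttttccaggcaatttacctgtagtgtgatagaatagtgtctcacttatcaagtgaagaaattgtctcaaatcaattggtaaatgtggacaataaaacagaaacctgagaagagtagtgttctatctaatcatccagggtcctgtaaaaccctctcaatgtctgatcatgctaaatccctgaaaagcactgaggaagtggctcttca

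Klb encodes the co-receptor for the hormone FGF21, and its window at chr5:65348161-65348460 (+) held 3 CCGG, of which the reversed gain covered 1. Mpig6b, a receptor of megakaryocytes and platelets, has its window at chr17:35066135-35066434 (-), with both of its 2 CCGG covered. Sgms1, a sphingomyelin synthase, has its window at chr19:32349267-32349566 (-) with 1 CCGG, which was covered. Slc7a7, a transporter of cationic amino acids, has its window at chr14:54410154-54410453 (-) with 2 CCGG, of which 1 was covered. Vmn1r120, a vomeronasal receptor of a family of near-identical genes, has its window at chr7:21053735-21054034 (-) with 1 CCGG, also covered.

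At the Slc7a7 promoter the WT DMM libraries held 0, 44.02 and 40.61 normalized counts, against 21.78, 20.03 and 15.55 in WT sham. In the comparison of genotypes the MUT DMM libraries held 5.62 and 10.66, against 0, 24.82 and 23.74 in WT DMM. The first value of WT DMM was 0 in both, and the other values of WT DMM lay above all of WT sham and of MUT DMM. The Mpig6b promoter had 0, 38.69 and 41.65 normalized counts in WT DMM, against 12.49, 20.03 and 13.33 in WT sham. Its MUT DMM libraries held 6.79 and 7.11, against 0, 21.81 and 24.35 in WT DMM. The Klb promoter was lower throughout, at 0, 18.68 and 17.7 normalized counts in WT DMM and 4.48, 3.58 and 6.66 in WT sham. Its MUT DMM values were 1.64 and 3.55, which stand for 7 reads and 1 read, against 0, 10.53 and 10.35 in WT DMM. Sgms1 and Vmn1r120 rested more on the third-listed WT DMM library. Sgms1 held 0, 6.67 and 20.83 in WT DMM, against 3.52, 3.58 and 3.93 in WT sham. It held 0.94 and 3.55 in MUT DMM, against 0, 3.76 and 12.18 in WT DMM. Vmn1r120 held 0, 4 and 33.32 in WT DMM, against 6.41, 5.72 and 2.73 in WT sham. It held 0.94 and 3.55 in MUT DMM, against 0, 2.26 and 19.48 in WT DMM.

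Normalized counts are the authors' values for each library, scaled within each comparison, so the same WT DMM reads have other values in the 2 comparisons. In every library they were whole multiples of 1 step, the value of 1 read, which made the reads behind each value visible. Coordinates are those of the gain, on mm10, and the values between the genotypes are those of the overlapping lower region. Both regions shared 72.2% of the longer one at the median, had identical bounds in 707 and held the same WT DMM reads in 1786 (31.1%), and 61 reversed gains also overlapped a region listed as higher in MUT DMM. The tables name no replicate, and libraries are called by their place in the joined cell. MUT DMM had 2 distinct libraries, since 2 of its 3 entries were identical in every region. The repeated library is counted once, except in the authors' group means, which set the rule. Counting it once in the rule too left all 5738 reversed gains. The distinct libraries are called the deeper library, with 5889464 reads in the regions listed between the genotypes, and the shallower one, with 407929 reads. In the regions listed between WT DMM and WT sham, the WT DMM libraries held 4726, 436852 and 925241 reads in the order listed, and the WT sham libraries 563233 to 2187392. One read of the first-listed WT DMM library was worth 15.7 normalized counts there, against 0.171 to 1.33 in the other libraries. The labelled cartilage could not be checked on its marker genes, because 5hmC and not RNA was measured, and 5hmC within Tet1 does not show whether Tet1 was lost.

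The values that chose the regions follow as a description. Reversed gains had a median of 10.4 normalized counts in WT DMM and 3.94 in WT sham, a median ratio of 2.54, against 7.37 and 2.68 and a ratio of 2.69 for the other gains. Between the genotypes their median was 2.48 in MUT DMM, against 7.46 in WT DMM, and WT DMM was 2.25 times MUT DMM at the median of the 5731 regions with MUT DMM reads. The other lower regions had nearly the same medians, 2.36 in MUT DMM and 7.33 in WT DMM. The authors' adjusted p was under 0.05 in both comparisons for 5704 of the 5738. By the same threshold, 93.5% of all listed regions were higher in WT DMM against WT sham and 64.7% were lower in MUT DMM against WT DMM. The authors' p-values between the genotypes may count the repeated MUT DMM library as 2 libraries. On the injury side, the reversed gain with the smallest difference averaged 5.00 normalized counts in WT DMM and 2.26 in WT sham. The nearest region beyond the rule averaged 12.64 in WT DMM and 26.24 in WT sham. On the mutant side, the smallest difference was inside Smyd4, of the SMYD family of methyltransferases, with 1.65 in MUT DMM, against 3.08 in WT DMM. The nearest region beyond that rule averaged 10.92 in MUT DMM, against 4.20 in WT DMM. The MUT DMM values of 1.65 and 10.92 are the authors' means, in which the repeated library makes up 2 of 3 entries.

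By library, the reversed gains rested on the second- and third-listed WT DMM libraries. On the injury side their median was 0, 10.67 and 20.83 normalized counts in the WT DMM libraries, which is 0, 8 and 20 reads, against 4.16, 5.01 and 3.08 in the WT sham libraries, which is 13, 7 and 18 reads. The first-listed WT DMM library had no read in 5088 of them (88.7%), and in 97.7% of all gains. The third-listed was above the second-listed in 90.2%, as in 88.0% of all gains. In MUT DMM against WT DMM the medians were 1.64 and 3.55 normalized counts in the deeper and shallower MUT DMM libraries, or 7 reads and 1 read, against 0, 6.77 and 14 in WT DMM. When the third-listed library was left out of WT DMM, 3065 of the 5738 kept both directions. Without any other single library, 5383 to 5738 did.

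**Figure D1:**
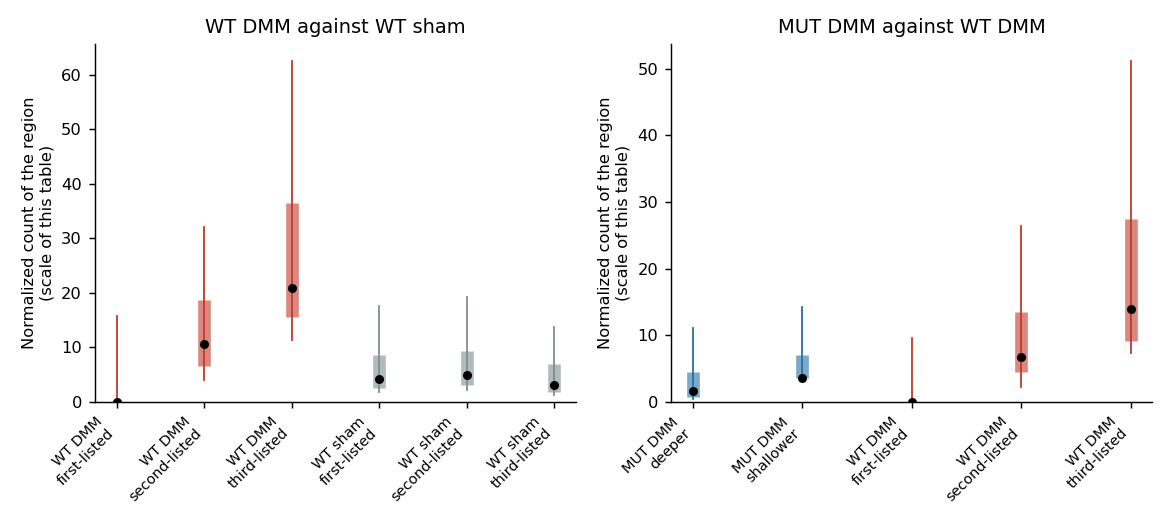
Normalized count of the reversed gains in each library, on the scale of WT DMM against WT sham (left) and of MUT DMM against WT DMM (right). Dots are medians over regions, thick bars run between the quartiles and thin lines from the 10th to the 90th percentile. The first-listed WT DMM library has a median of 0 in both panels, and the third-listed has the highest, 20.83 on the left and 14 on the right.

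Every WT DMM library was above every WT sham library in 281 reversed gains (4.90%), against 0.95% of all gains. Every MUT DMM library was below every WT DMM library in 690 (12.03%), against 29.1% of all lower regions. Both held in 242 (4.22%). Without the nearly empty first-listed WT DMM library these counts were 4924 (85.8%, against 85.2% of all gains), 4643 (80.9%, against 81.7% of all lower regions) and 4325. On those libraries the shares were close to those of the regions from which the reversed gains were drawn.

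Several of the named regions stood apart in every library of both comparisons. Arid5b encodes a DNA-binding protein that works with Sox9 in chondrocytes, and its reversed gain lay inside the gene at chr10:68133261-68133520 with the same bounds in both comparisons. It held 15.68, 25.35 and 19.78 normalized counts in WT DMM, against 6.73, 0.72 and 1.71 in WT sham. Its MUT DMM values were 2.34 and 0, which is 10 reads and no read, against 9.56, 14.29 and 11.57 in WT DMM. The groups did not overlap in either comparison, although the first-listed WT DMM value was 1 read.

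Of the regions with the smallest adjusted p over both comparisons, one lay outside genes at chr13:53294801-53295100, with Ror2, a receptor for Wnt5a, as the authors' nearest gene at 5678 bases. It held 15.68, 29.35 and 35.40 normalized counts in WT DMM, against 15.38, 15.02 and 10.94 in WT sham. The MUT DMM libraries held 10.06 and 14.22, against 19.12, 28.58 and 30.44 in WT DMM. The groups were apart, by a narrow margin at the first-listed WT DMM library. Another region outside genes, at chr4:11835581-11835860 with the cadherin gene Cdh17 nearest, averaged 42.0 ± 9.23 normalized counts in WT DMM and 25.6 ± 1.99 in WT sham (SD, n = 3 each). In the comparison of genotypes it averaged 10.7 ± 5.06 in MUT DMM (SD, n = 2) and 25.2 ± 5.97 in WT DMM (SD, n = 3). A region at chr15:42870001-42870200 lay 149612 bases from Rspo2, which encodes an enhancer of Wnt signalling. It held 15.68, 29.35 and 27.07 normalized counts in WT DMM, against 1.28, 7.87 and 1.37 in WT sham, and 1.17 and 0 in MUT DMM, against 19.12, 18.80 and 18.26 in WT DMM.

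Gmeb1, whose product binds glucocorticoid response modulatory elements, had its reversed gain at chr4:132248901-132249240. It held 31.35, 40.02 and 49.98 normalized counts in WT DMM, against 17.94, 20.74 and 20.85 in WT sham. MUT DMM held 10.29 and 0 there, against 19.12, 22.57 and 29.83 in WT DMM, and the groups were apart in both comparisons. Boc, a co-receptor of Hedgehog ligands, had its reversed gain at chr16:44496341-44496580. It averaged 122 ± 24.9 normalized counts in WT DMM and 91.5 ± 4.22 in WT sham (SD, n = 3 each), and its first-listed WT DMM value of 94.05 lay below the highest WT sham value of 95.86. In the other comparison it held 52.18 and 49.76 in MUT DMM, against 57.36, 85.75 and 89.49 in WT DMM, with no overlap. Zfp957, a zinc-finger gene, held 31.35, 61.37 and 57.27 at chr14:79239241-79239620 in WT DMM, against 30.75, 31.48 and 27 in WT sham. Its MUT DMM values were 14.51 and 7.11, against 19.12, 34.60 and 33.48 in WT DMM. Gp6, a collagen receptor of platelets, averaged 24.9 ± 10.6 in WT DMM and 13.3 ± 2.50 in WT sham at chr7:4392441-4392760 (SD, n = 3 each). Its MUT DMM values of 5.15 and 10.66 overlapped those of WT DMM, at 9.56, 15.04 and 21.31.

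**Figure D2:**
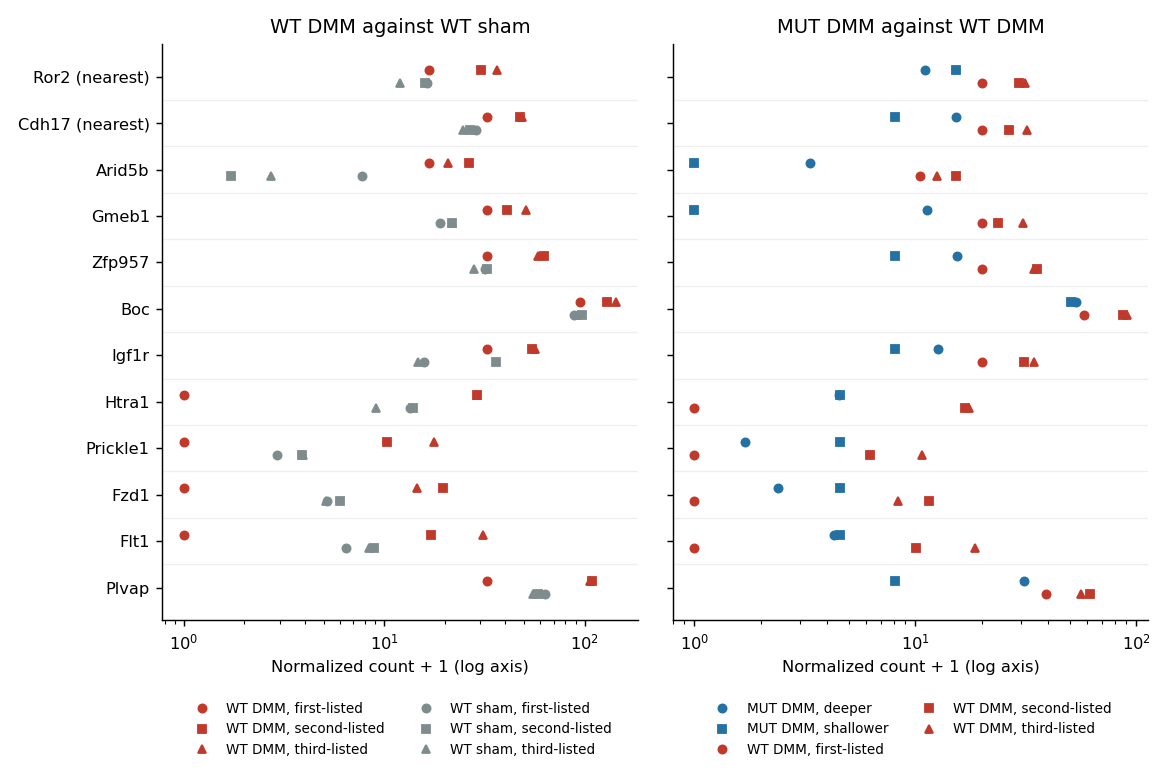
Normalized count + 1 on a log axis in each library of 12 named reversed gains, for WT DMM against WT sham (left) and MUT DMM against WT DMM (right). In Htra1, Prickle1, Fzd1 and Flt1 the first-listed WT DMM library is at 0 (plotted at 1), below all other libraries, and in Arid5b and Gmeb1 the groups do not overlap in either panel.

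Of 416 genes in 15 lists for cartilage, its signalling pathways and other cell types of the joint, 180 held a gain and 40 a reversed gain. These 40 genes held 44 of the 443 gains in listed genes, or 9.93%, against 14.6% over all gains. Of the 30 cartilage matrix genes 12 held a gain and none a reversed gain. They held 15 gains in all, so few that 0 reversed says little beside the 14.6% over all gains. Of 33 matrix proteases and their inhibitors, 16 held a gain and 4 a reversed gain, namely Htra1, Mmp16, Adam17 and Adamts9, and 4 of their 43 gains (9.30%) were reversed. Htra1 encodes a secreted serine protease that cuts matrix proteins. At chr7:130951241-130951440 it held 0, 28.02 and 28.11 normalized counts in WT DMM, against 12.49, 12.88 and 8.03 in WT sham. Its MUT DMM libraries held 3.51 and 3.55, against 0, 15.80 and 16.44 in WT DMM. Apart from the empty first-listed library, WT DMM lay above WT sham and above MUT DMM. Mmp16, a membrane-type metalloproteinase, held 0.94 and 3.55 in MUT DMM at chr4:17855521-17855760, against 0, 3.01 and 9.74 in WT DMM. Its WT DMM values of 0, 5.34 and 16.66 overlapped the WT sham values of 3.84, 3.58 and 2.22, and without the third-listed WT DMM library both directions turned, with a mean of 2.67 in WT DMM, against 3.21 in WT sham, and of 2.245 in MUT DMM, against 1.505 in WT DMM.

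Wnt signalling, the longest list, had the most genes with a reversed gain, 11 of its 54, while 26 held a gain. Of its 64 gains 12 (18.8%) were reversed, against 14.6% over all gains, a difference that was not tested. The genes were the receptors Fzd1, Ror1 and Ror2, the planar polarity genes Prickle1 and Prickle2, the cytoplasmic Dvl1 and Apc, the transcription factors Lef1 and Tcf7l2, the ligand enhancer Rspo3 and the inhibitor Dkk2. Prickle1, which held 2, had 0, 9.34 and 16.66 normalized counts in WT DMM at chr15:93513381-93513660, against 1.92, 2.86 and 2.91 in WT sham. Its MUT DMM values were 0.70 and 3.55, or 3 reads and 1 read, against 0, 5.27 and 9.74 in WT DMM. At Fzd1, a Wnt receptor, chr5:4754681-4755000 held 0, 18.68 and 13.54 in WT DMM, against 4.16, 5.01 and 4.10 in WT sham. In MUT DMM it held 1.40 and 3.55, against 0, 10.53 and 7.31 in WT DMM. In both genes the groups overlapped through the first-listed WT DMM library only.

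Among 30 transcription factors of chondrocytes, 19 held a gain and 7 a reversed gain, namely Foxp1, Trps1, Runx2, Nfia, Foxa2, Foxp2 and Gli3. Of their 105 gains 8 (7.62%) were reversed. Runx2, which drives hypertrophy and bone formation, differed between the regions compared. At chr17:44704221-44704460 it held 0, 37.35 and 46.86 normalized counts in WT DMM, against 12.17, 16.45 and 17.09 in WT sham. The overlapping lower region, chr17:44704281-44704480, covered other reads and held 25.97 and 35.54 in MUT DMM, against 0, 44.38 and 68.18 in WT DMM. Without the third-listed WT DMM library that direction turned, with a mean of 30.8 in MUT DMM, against 22.2 in WT DMM. Where the first of these regions was itself listed, MUT DMM was above WT sham, at 35.34 and 75.58 against 20.15, 26.63 and 27.74 (adjusted p = 0.000455 in the authors' deposited table). Trps1, a repressor in the growth plate, averaged 38.2 ± 34.4 normalized counts in WT DMM and 25.6 ± 2.04 in WT sham at chr15:50683181-50683460 (SD, n = 3 each), a difference within the spread of WT DMM. Without the third-listed WT DMM library both of its directions turned, with 24.0 in WT DMM, against 25.6 in WT sham, and 8.605 in MUT DMM, against 8.275 in WT DMM. Foxp1, a forkhead factor, held 0.94 and 3.55 in MUT DMM at chr6:99492841-99493060, against 0, 3.76 and 11.57 in WT DMM. Its direction turned without the third-listed WT DMM library, with a mean of 2.245 in MUT DMM, against 1.88 in WT DMM.

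The hypertrophy list had 1 gene with reversed gains, the cAMP phosphodiesterase gene Pde4d with 3, of 12 with a gain, and 5.88% of its 51 gains were reversed. At the Pde4d region chr13:108809161-108809600 both directions turned without the third-listed WT DMM library, with a mean of 3.335 in WT DMM, against 4.61 in WT sham, and of 2.125 in MUT DMM, against 1.505 in WT DMM. Of 45 TGF-beta and BMP genes, 20 held a gain and 3 a reversed gain, namely Skil, which encodes an inhibitor of the pathway, and the ligand genes Bmp6 and Inhba, so that 3 of 32 gains (9.38%) were reversed. Skil held 0, 8 and 19.78 normalized counts in WT DMM at chr3:31122621-31122960, against 2.88, 3.58 and 1.88 in WT sham. Of 33 genes of IGF, insulin and mTOR signalling, 15 held a gain and 3 a reversed gain, the receptor Igf1r and the kinases Akt2 and Pik3ca, with 3 of 31 gains (9.68%) reversed. Igf1r had a read of the first-listed WT DMM library. At chr7:68102401-68102640 it held 31.35, 53.36 and 55.19 in WT DMM, against 14.74, 35.05 and 13.67 in WT sham, which overlap at 1 library of each. The lower region around it held 11.70 and 7.11 in MUT DMM, against 19.12, 30.09 and 33.48 in WT DMM, with no overlap. Of 40 inflammatory genes, 17 held a gain and 2 a reversed gain, the stress kinases Map3k5 and Map3k7, or 2 of 29 gains (6.90%). All 4 shares lay below the 14.6% over all gains.

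The 24 genes of DNA methylation included 6 with a gain and 2 with a reversed gain, Zbtb38 and Uhrf2, whose products bind methylated or hydroxymethylated DNA. They held only 10 gains, of which 2 (20%) were reversed, against 14.6% over all gains. Uhrf2 rested on 1 library, with 0, 0 and 17.7 normalized counts in WT DMM. Tet1 itself held 2 gains, of which none was reversed, and 4 lower regions of MUT DMM against WT DMM lay in it or within 5 kb. Tet2 and Tet3 held no gain, with 5 lower regions at Tet2 and 6 at Tet3 within the same distance. No count for other genes stands beside these numbers of lower regions, so they are a description only.

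Lists for other cells of the joint also held reversed gains. There were 3 of 20 endothelial genes (Flt1, Plvap and Tek), 2 of 22 haematopoietic genes (Ptprc and Adgre1), 1 of 20 muscle genes (Neb) and 1 of 12 adipocyte genes (Acsl1), where 12, 8, 5 and 3 genes held a gain. Reversed were 13.6% of the 22 endothelial gains and 15.4% of the 13 haematopoietic gains, near the 14.6% over all gains, and 1 of 12 muscle and 1 of 4 adipocyte gains. None of the 14 osteoblast and osteoclast genes and none of the 14 fibroblast and synovial genes had one. Those lists held 5 and 6 genes with a gain, and only 5 and 9 gains. Plvap, which encodes a protein of endothelial diaphragms and overlaps Gtpbp3 in this region, held 31.35, 108.06 and 105.17 normalized counts in WT DMM at chr8:71498041-71498320, against 62.15, 57.23 and 54.34 in WT sham. Its MUT DMM libraries held 29.95 and 7.11, against 38.24, 60.93 and 55.40 in WT DMM. Flt1, a receptor for VEGF, held 3.28 and 3.55 in MUT DMM at chr5:147569101-147569380, against 0, 9.03 and 17.65 in WT DMM. Adgre1, the macrophage antigen F4/80, held 6.55 and 0 in MUT DMM in the lower region that overlaps chr17:57426021-57426240, against 9.56, 11.28 and 35.31 in WT DMM. Ptprc, the leukocyte antigen CD45, had 2 reads and no read in MUT DMM, against 1, 3 and 18 reads in WT DMM, at chr1:138111741-138111940. Whether the share of such cells in the dissected cartilage differed between groups was not tested, and fewer cells of a type cannot be told apart from less 5hmC in each.

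**Figure D3:**
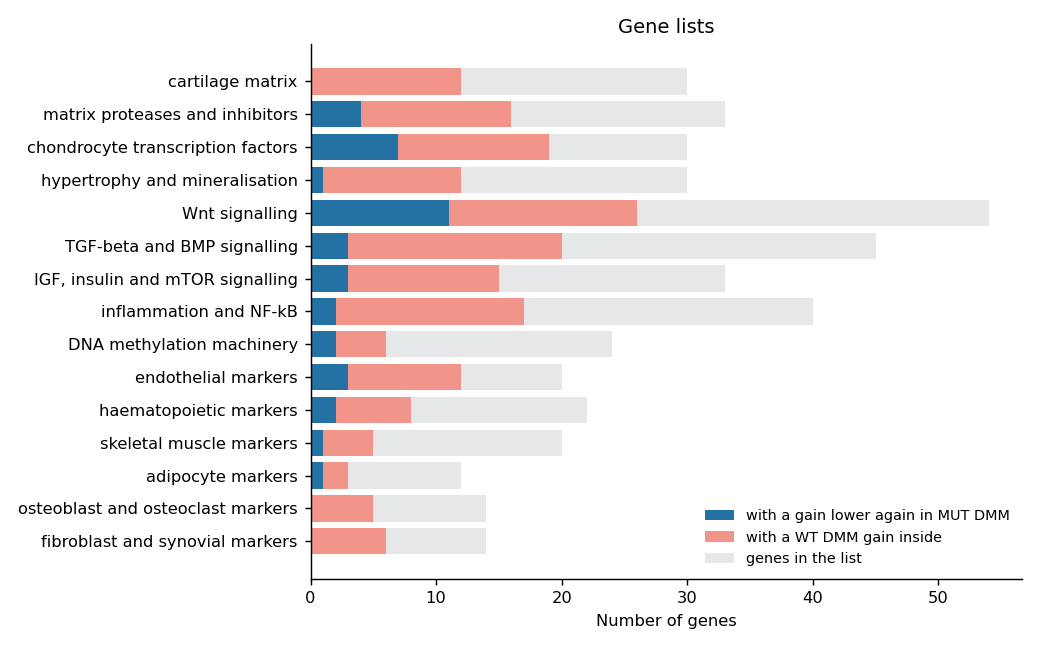
Number of genes in each of 15 lists (grey), of those with a WT DMM gain inside (red) and of those with a reversed gain (blue), drawn over one another from 0. Wnt signalling, the longest list, has the longest blue bar, 11 of 54 genes, and the cartilage matrix list, with 15 gains in all, has none of 30.

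Reversed gains were found on all 19 chromosomes and lay more often outside genes than inside. In genes lay 2697 (47.0%), against 51.0% of the other gains, and in protein-coding genes 36.6%, against 41.7%. They fell in 2256 genes, of which 1879 held 1. The share of gains that were reversed was lowest on chromosome 16 (11.2%) and highest on chromosome 7 (17.9%). It was higher where the gain's WT DMM mean was higher, at 6.33%, 8.42%, 11.9% and 32.1% in 4 bins of 9560 to 10193 gains by that mean, which the rule itself uses.

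Of the windows of 1 Mb, 39 held 10 or more reversed gains each, 879 in all, and some of these windows lie in arrays of gene copies. The windows were picked by that count, so their share of reversed gains is a description. The fullest window, chromosome 8 from 20 to 21 Mb, held 104 of its 175 gains, around Gm20778 and Gm21119. Others lay at the vomeronasal receptor genes of chromosome 7 (40 of 105 gains from 22 to 23 Mb), the Pramel genes of chromosome 5 (39 of 88 gains from 95 to 96 Mb) and the zinc-finger genes of chromosome 4 (28 of 63 gains from 146 to 147 Mb). Of the gains in genes whose symbol starts with Vmn, 30.3% were reversed (44 of 145), and 21.6% of those starting with Zfp (69 of 319), against 13.6% of all gains in genes. The Vmn and Zfp counts overlap. The pseudogenes Vmn2r-ps16 and Vmn2r-ps17, with 9 and 6 reversed gains, lie among the zinc-finger genes of chromosome 4, where some regions fall in genes of both names. Mup genes, which encode the urinary proteins, had 10 of 18. The olfactory receptor genes, whose symbols start with Olfr, also form large arrays and had a lower share, 6 of 53 (11.3%). Values in such arrays are uncertain, because reads of near-identical copies may be split or shared between them, and the sources used here do not say how the authors treated such reads.

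**Figure D4:**
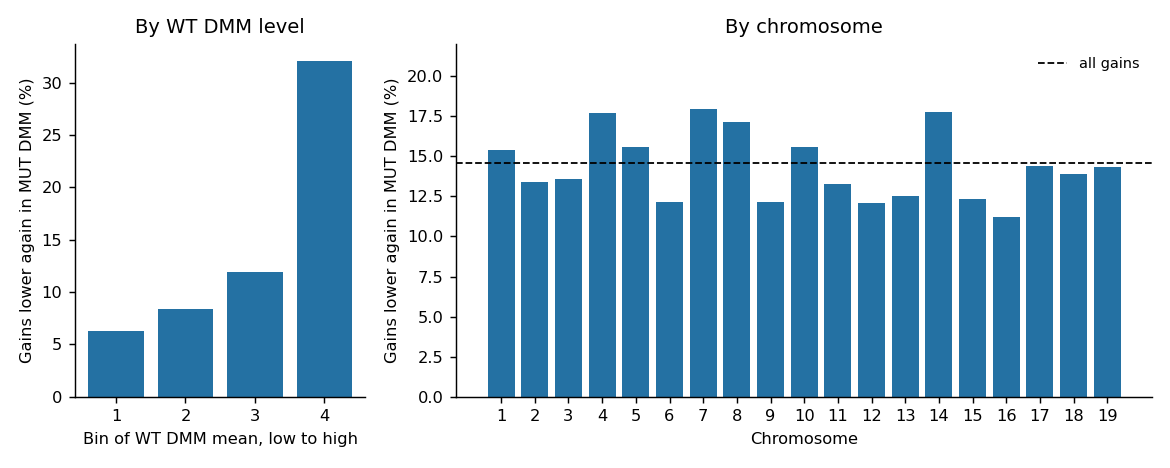
Percentage of WT DMM gains that were reversed, in 4 bins of the WT DMM mean from low to high (left) and by chromosome (right), with the 14.6% of all gains as a dashed line. The highest bin stands at 32.1% and the lowest at 6.33%, and chromosomes 7, 14, 4 and 8 are the highest of the 19.

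Single genes with most reversed gains were Sfi1, which encodes a centrosome protein, with 16 of 21 gains, 4930467E23Rik with 13 of 17, Zfp993 with 13 of 22 and Zfp978 with 13 of 29. Sfi1 has copies in the mouse genome, and its values are uncertain in the same way. At chr11:3188941-3189260 it held 0, 49.36 and 81.22 normalized counts in WT DMM, against 22.42, 28.61 and 25.46 in WT sham. Without the third-listed WT DMM library that direction turned, with a mean of 24.7 in WT DMM, against 25.5 in WT sham. The lower region around it held 53.35 and 49.76 in MUT DMM, against 0, 152.69 and 307.44 in WT DMM. The immunoglobulin kappa locus Igk held 10 of 40 gains over 3171 kb, and Snhg14, a long non-coding host gene for small nucleolar RNAs, held 8 of 25. These long loci had fewer reversed gains per length than Sfi1, which spans 71.5 kb.

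The third table, MUT DMM against WT sham, was used to ask whether MUT DMM had returned to the sham level. It listed no overlapping region for 5085 reversed gains (88.6%), and for 94.9% of the other gains. A table holds only regions with a window p of 0.0001 or less, some of them with an adjusted p of 0.05 or more, so a place that is absent may have any level that missed the authors' threshold. It listed 442 (7.70%) as lower in MUT DMM than in WT sham, against 3.13% of all gains, and 223 (3.89%) as higher, against 2.92% of all gains, with 12 in both directions. The overlapping regions were often not the same place: 24 of the lower and 10 of the higher held the reads of WT sham that the reversed gain held. The lower regions had a median of 10.3 normalized counts in MUT DMM, against 27.7 in WT sham, and the higher ones 12.4 in MUT DMM and 2.91 in WT sham. In limma's moderated test over all 72486 regions of that table, on log2(value + 1) with Benjamini-Hochberg adjustment at 0.05, regions called lower overlapped 165 reversed gains (2.88%, against 2.18% of all gains). Regions called higher overlapped 39 (0.680%, against 0.405% of all gains). These p-values cover only regions the authors had listed, and the MUT DMM and WT sham libraries tested also entered the rule, so the shares are a description and support nothing about the reversed gains. With any 1 of the WT sham libraries left out, 72 to 119 were lower and 11 to 17 higher, and 171 were higher without the deeper and 24 without the shallower MUT DMM library.

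The listed regions with the smallest adjusted p showed both directions. Beside the reversed gain at chr9:86069421-86069720, outside genes, the listed region held 34.61 and 56.68 normalized counts in MUT DMM, against 74.77, 70.62 and 69.63 in WT sham. Beside that in Slc1a4, a neutral amino acid transporter, it held 3.68 and 9.45 in MUT DMM, against 18.56, 24.31 and 20.25 in WT sham. At chr16:78889341-78889620, outside genes, the listed region was higher, with 164.94 and 179.5 in MUT DMM, against 100.75, 113.46 and 82.66 in WT sham. None of these 3 held the same WT sham reads as its reversed gain, so the level there is not that of the same reads.

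For 12 reversed gains all 3 tables held the same reads, so that the 3 groups could be compared at 1 place. All 12 were listed as lower in MUT DMM than in WT sham, and none as higher, among the 1786 with the same WT DMM reads in the first pair of comparisons. Their mean was 0 to 53.7 normalized counts in MUT DMM, against 8.68 to 86.5 in WT sham, and in 11 every MUT DMM library was below every WT sham library. Atad2b, which encodes a bromodomain protein with an ATPase domain, held 22.83 and 9.45 in MUT DMM at chr12:4915261-4915640, against 43.48, 40.52 and 46.05 in WT sham (adjusted p = 0.00150 in the authors' deposited table). In WT DMM against WT sham that place held 15.68, 52.03 and 64.56 in WT DMM, against 26.27, 25.04 and 28.37 in WT sham. Adcy10, the soluble adenylyl cyclase gene, held 10.31 and 18.89 in MUT DMM at chr1:165533501-165533880, against 25.98, 32.42 and 24.69 in WT sham (adjusted p = 0.00136 in the authors' deposited table). A region outside genes at chr5:57271181-57271540 had 62.7, 77.38 and 148.9 in WT DMM, against 49.97, 60.09 and 49.05 in WT sham. It held 44.18 and 37.79 in MUT DMM, against 82.72, 97.25 and 79.61 in WT sham, on the scale of the third table (adjusted p = 0.000390 in the authors' deposited table). They could be compared only because the third table lists them, so a place at the WT sham level could hardly be among them, and the MUT DMM values had also entered the rule. Of the 12, 5 lay in genes, the other three being 1700123O12Rik, Ifi203-ps and Srp54c.

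The level at places the third table did not list was read by putting the reads of MUT DMM and WT sham on that table's scale, through its value of 1 read per library. This was possible at 707 reversed gains with identical bounds in the first pair of comparisons. Their median mean was 6.56 normalized counts in MUT DMM, against 5.46 in WT sham. By library, the medians were 3.68 in the deeper and 9.45 in the shallower MUT DMM library, against 6.36, 6.95 and 4.72 in the WT sham libraries. The mean of both MUT DMM libraries was below that of WT sham in 230 (32.5%), within the range of the WT sham libraries in 310 (43.8%), and the answer depended on the library. The deeper library was below the WT sham mean in 655 (92.6%) and the shallower one in 148 (20.9%). One read of the shallower library was worth 9.45 normalized counts, it had exactly 1 read in 537 of the 707 (76.0%), and the WT sham mean was under that value in 484 (68.5%). The shallower library therefore cannot show a level at or below WT sham in most of them, unless it has no read.

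Of the 1786 reversed gains with the same WT DMM reads, the MUT DMM mean was below that of WT sham in 539 (30.2%). Where their bounds were not identical, the reads of MUT DMM and WT sham came from overlapping regions with different bounds. Among the 1786, 487 had a WT sham mean worth 1 read of the shallower library or more. In these the MUT DMM mean was below that of WT sham in 358 (73.5%), the deeper library in 87.3% and the shallower in 62.0%. Both libraries were below all WT sham libraries in 137 and above all of them in 7. The medians were 14.6 normalized counts in MUT DMM, against 17.5 in WT sham. A choice of regions by a high WT sham mean raises such shares by itself, and the MUT DMM values entered the rule, so they have no test and do not show that depth set the share.

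Single genes on that scale differed. Bounds were identical in the first pair of comparisons at Flt1, Arid5b, Prickle1 and Akt2. At the other genes named here the reads of MUT DMM and WT sham came from overlapping regions with different bounds. Htra1 held 11.0 and 9.45 normalized counts in MUT DMM, against 20.7, 20.8 and 13.0 in WT sham, with no overlap. Zfp957 held 45.7 and 18.9 in MUT DMM, against 50.9, 50.9 and 43.8 in WT sham, which overlap at the deeper library. Flt1 held 10.3 and 9.45 in MUT DMM, against 9.01, 12.7 and 11.9 in WT sham, within the spread of WT sham. Map3k5 held 28.7 and 28.3 in MUT DMM, against 31.3, 22 and 22.7 in WT sham, also within it. Of the promoters, Slc7a7 held 17.7 and 28.3 in MUT DMM, against 36.1, 32.4 and 25.2 in WT sham. Arid5b held 7.36 and 0 in MUT DMM, against 11.1, 1.16 and 2.77 in WT sham, which overlap. At Prickle1, Foxp1, Akt2 and Mmp16 the shallower library had 1 read, above all WT sham libraries, while the deeper held 2.21 to 2.95.

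**Figure D5:**
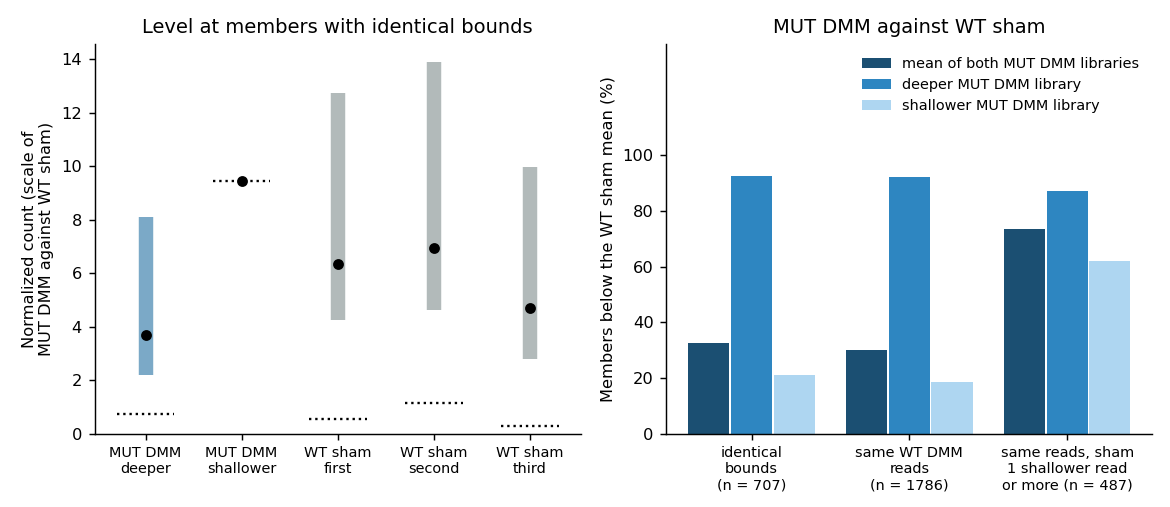
Left, normalized count at the 707 reversed gains with identical bounds in MUT DMM and WT sham libraries, on the scale of MUT DMM against WT sham, with medians as dots, quartiles as bars and the value of 1 read as dotted lines. Right, percentage of reversed gains below the WT sham mean in 3 sets of regions, for the mean of both MUT DMM libraries and for each alone; the last set was picked by a high WT sham mean. The median of the shallower library is its single read at 9.45, and its bar is the lowest in each set.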

How the data were processed

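5hmC was profiled in knee cartilage DNA of 13 labelled samples, of which MUT DMM, WT DMM and WT sham were used. Reads were handled with HISAT2 2.1.0, Trim Galore 0.5.0, bcl2fastq 2.20.0, bedtools and SAMtools on mm10, per the submitters' processing notes. No source used here names the program that called regions. Libraries were amplified in 15 PCR cycles, per the labels' protocols, so reads are not independent molecules. The authors deposited 3 tables of regions (43378, 65969 and 72486), each with the mean signal per group, the joined normalized counts of 3 libraries and, per the file headers, p-values and adjusted p-values per region. No window p-value exceeded 0.0001, and the tables hold regions picked by it, some of them with an adjusted p of 0.05 or more. Adjusted p-values quoted as the authors' come from the authors' deposited table. Where MUT DMM takes part, 2 of its 3 entries are the same library, so these p-values may treat 2 libraries as 3.

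Reads were recovered as normalized counts over the value of 1 read, and were whole within 0.02 normalized counts in nearly every value (99.99% of the first-listed WT DMM library against MUT DMM, 100% elsewhere). Where the bounds were shared, reads of the same library were equal between tables in 100% of 1863 regions for MUT DMM and 248 for WT sham. The value of 1 read of the WT DMM libraries changed by unequal factors between the tables, so no common scale across the first pair of tables could be set, and that of the third table was used instead, a choice made after the data were seen. Genes come from RefSeq (GRCm38.p6, the assembly also named mm10). A gene holds a region when 1 base overlaps.

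The members, the gene lists and the rules were chosen with earlier results of these data known. The regions and genes named were the 10 genes with most reversed gains, up to 4 per list, the 10 regions with the smallest adjusted p, up to 10 with libraries apart in both tables, and 5 lower and 5 higher in the third table, from which examples were given. Other genes were named after their values were seen. limma 3.58.1 (R 4.3.3) was run on log2(value + 1) over the third table with 2 MUT DMM and 3 WT sham libraries. Its steps were also run on simulated data with large changes and the same noise in every library. That run does not show how the test behaves on libraries with few reads. No count model was fitted, since each table lists selected regions only. Other steps used Python 3.11.15 with pandas 2.3.3. Nothing in the labels says that libraries came from separate mice within a group beyond their being called biological replicates. A p-value reflects only how far the entries counted for it spread.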

Additional observations from a re-analysis of the deposited data

How the results depend on the processing

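Of 5738 reversed gains, 4895 shared at least 50% of both regions, 5704 had adjusted p under 0.05 and 4408 a fold of 2 or more in both tables. Identical bounds left 707, and adjusted p under 0.001 in both left 2013. Leaving out 1 library gave 3065 to 5738, the lowest with the third-listed library of WT DMM left out. Members listed in MUT DMM against WT sham as lower numbered 442, against 217 with 50% overlap, 276 at adjusted p under 0.001 and 24 with the same WT sham reads. Those listed as higher numbered 223, against 93, 78 and 10. By limma 165 were lower and 39 higher. A mean of 5 or more left 26 lower and 2 higher, counting the repeated library as listed gave 62 higher, and leaving out 1 library gave 72 to 208 lower and 11 to 171 higher. The share below WT sham was 32.5%. It was 46.5% with the repeated library counted as listed, 38.2% at adjusted p under 0.001, 43.3% on reads divided by each library's total in the listed regions, 70.9% where the WT sham mean reached 1 read of the shallower library, a choice that raises it by itself, and 20.9% to 92.6% without 1 library. The libraries of 242 did not overlap in both tables, against 32 at adjusted p under 0.001 and 242 to 4325 without 1 library, the highest without the first-listed WT DMM library. In genes lay 47.0%, against 59.2% with genes widened by 5 kb (other gains 61.8%) and 45.4% at adjusted p under 0.001. The cause of these changes was not tested. Of 29 named regions put to this check, 6 changed direction when the third-listed library of WT DMM was left out. Regions of other genes named here were not checked, and some of them also rested on that library. Uhrf2 held 0, 0 and 17.7 normalized counts in WT DMM, against 1.6, 2.86 and 1.71 in WT sham. Adamts9 held 0, 2.67 and 30.2 in WT DMM, against 5.77, 6.44 and 2.73 in WT sham. At Slc7a7 and Klb, also not checked, the second-listed library was high too. With 1 library left out, the difference WT DMM minus WT sham ranged from -0.54 to 7.79 normalized counts at Mmp16, -1.60 to 31.7 at Trps1, -1.28 to 14.3 at Pde4d and -0.82 to 39.8 at Sfi1. The difference MUT DMM minus WT DMM ranged from -4.13 to 0.74 at Mmp16, -25.5 to 8.57 at Runx2, -5.42 to 0.365 at Foxp1, -13.98 to 0.33 at Trps1 and -6.08 to 0.62 at Pde4d. No paired analysis was possible because the joined columns carry no replicate number. At the median, reversed gains had 0 reads in the first-listed WT DMM library and 1 read in the shallower MUT DMM library.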

Other observations

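Adcy10 at chr1:165533501-165533880 and a region outside genes at chr11:56210921-56211300 are on different chromosomes and held the same reads in all libraries but 1. Both had 14 reads and 2 reads in the deeper and shallower MUT DMM libraries, 0, 16 and 56 in WT DMM, and 49 and 28 in the first- and second-listed WT sham libraries. The third-listed WT sham library had 89 at Adcy10 and 88 on chromosome 11. Whether the reads come from copies of 1 sequence was not tested, and the values of both are uncertain.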
